A study of Mus musculus with 8 samples.

Results

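The interval from Fignl1 through Ddc to Grb10 lies downstream of Ikzf1 on mouse chromosome 11, and its contacts with the Ikzf1 promoter were read from 6 4C-seq libraries. Its members were the DpnII fragments whose midpoint fell between positions 11687434 and 11938686 of mm9, from the low end of Fignl1 to the high end of Grb10. They numbered 548 of the 295444 fragments of chromosome 11 listed in all 6 libraries. Of these 548, 520 had a read in at least 1 library, 130 had reads in all 6, and 28 had none in any.

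In 4C-seq, chromatin is fixed, cut and religated, so that pieces of DNA that lay close to a chosen viewpoint, here the Ikzf1 promoter, become joined to it and can be counted fragment by fragment. DpnII made the first cut and Csp6I the second. The interval began 103.914 kb and ended 355.166 kb downstream of the viewpoint.

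Ikzf1 encodes Ikaros, a zinc finger factor of lymphoid cells. Fignl1 encodes an AAA-type ATPase that acts with the recombinase of homologous repair. Ddc encodes aromatic L-amino acid decarboxylase, the enzyme that makes dopamine and serotonin from their amino acid precursors. Grb10 encodes an adaptor that restrains signalling from the insulin and insulin-like growth factor receptors, and it is imprinted: most tissues use the maternal copy, and neurons the paternal one. The reads did not separate the parental copies.

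The libraries came from sorted DN3 thymocytes (CD4-, CD8-, CD44lo, CD25+ by the labels, although the paper's text gives CD44+) of wt C57BL/6 mice, from J1 embryonic stem (ES) cells, and from P5424, a mouse T cell precursor line. P5424 cells were either wt or lacked IkE120, an enhancer upstream of Ikzf1, on both alleles (ΔIkE120, a single clone). Each genotype was unstimulated or had received 20 µg/ml PMA plus 0.5 µg/ml ionomycin (P/I) for 6 h. The file headers call the unstimulated libraries DMSO, and the labels do not say whether this vehicle was added. Nuclei of ES cells were opened with a milder SDS treatment than those of the other cells, so cell type and treatment cannot be told apart in comparisons with ES cells. There was 1 library per condition, so no difference between conditions has a replicate check and none was tested; the 95% intervals (exact Clopper-Pearson for shares) reflect sampling of reads alone, and PCR copies could not be told from separate ligations.

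Beyond 15 kb from the viewpoint, chromosome 11 held 1525273 reads in DN3 cells, 3095991 in ES cells, 1742231 in unstimulated wt P5424, 1526128 in stimulated wt P5424, 3342473 in unstimulated ΔIkE120 and 2178345 in stimulated ΔIkE120. These totals were the denominators of every share and of RPM, the reads scaled to a fixed total. A level of 3 reads corresponded to between 0.898 and 1.97 RPM.

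Contact with the whole interval was highest in ES cells. There it took 409788 reads, 13.2% of the total (95% interval 13.2 to 13.3%). In DN3 thymocytes it took 111583 reads, or 7.32% (7.27 to 7.36%). Among P5424 libraries the interval took 136229 reads in unstimulated wt cells (7.82%, 7.78 to 7.86%) and 108275 in stimulated wt cells (7.09%, 7.05 to 7.14%). The ΔIkE120 clone gave 218115 reads without stimulation (6.53%, 6.50 to 6.55%) and 149878 with it (6.88%, 6.85 to 6.91%). The 5 libraries other than ES cells thus lay close together. Both wt P5424 libraries lay above both ΔIkE120 libraries, with a log2 ratio of ΔIkE120 to wt of -0.26 without and -0.044 with stimulation; the latter turned to 0.00091 when the top fragment of each library was left out.

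The same order did not hold on the other side of the viewpoint as a whole. The mirrored interval upstream, at equal distances and holding the deleted enhancer, took 24.5% of DN3 reads but 12.8% of ES reads, and between 21.1% and 26.6% in P5424 cells. Within it, the part at the distances of Grb10 had ES over DN3 at 1.49 on the log2 scale (1.90% against 0.675%). Per kb, the downstream interval had 0.299 of the upstream density in DN3 cells and 1.04 in ES cells. In P5424 cells that ratio ran from 0.245 in unstimulated ΔIkE120 to 0.336 in stimulated wt cells. These averages joined opposite skews. Grb10 exceeded its mirror in every library, by 3.08-fold in DN3 cells, 3.76-fold in ES cells and 1.28-fold to 2.07-fold in P5424 cells. Reads covered 25.6% of the mirror's fragments in DN3 cells and 44.4% in ES cells, against 66.1% and 94.3% in Grb10. Whether fragment ends are unique in the genome was determined for the interval only, so mirrors could differ in mappability. Fignl1 and Ddc were below their mirrors in every library, at 0.487 and 0.545 of them in ES cells.

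ES cells also had reads on the most fragments. Reads fell on 482 of the 548 fragments in ES cells, 398 in DN3 cells, 320 in unstimulated and 266 in stimulated wt P5424, and 357 and 362 in unstimulated and stimulated ΔIkE120. At the depth of the DN3 library, the lowest, the ES count would be expected to be 475.6 and the unstimulated ΔIkE120 count 350.8. These expectations match total reads and treat them as independent, so differences in PCR copies were not evened out. Within 1 Mb, ES reads fell on 2739 of 4950 fragments, against 1405 in DN3 cells and 1220 to 1666 in P5424 cells. The interval thus made up 17.6% of the covered fragments within 1 Mb in ES cells and 28.3% in DN3 cells, and by this measure the log2 ratio of ES over DN3 turned from 0.86 to -0.69.

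Fignl1, the nearest gene, was the part of the interval with most contact per kb in DN3 cells. The annotated gene spans chr11:11687434-11708965 on the minus strand of mm9 and holds 52 of the fragments; its coding transcripts occupy only the part from 11700291, and longer non-coding transcripts the rest. It took 34255 reads in DN3 cells (2.25%), 39703 in ES cells (1.28%), 17417 in unstimulated wt P5424 (1.00%), 28246 in stimulated wt P5424 (1.85%), 43039 in unstimulated ΔIkE120 (1.29%) and 34148 in stimulated ΔIkE120 (1.57%). DN3 thymocytes were highest and unstimulated wt P5424 lowest. In log2 ratios of shares, ES over DN3 was -0.81 (95% counting interval -0.83 to -0.79) and unstimulated wt P5424 over DN3 was -1.17 (-1.19 to -1.14). Both were below 0 under every one of the 6 alternative settings tried, 1 of them chosen after seeing the data.

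The deletion and stimulation contrasts at Fignl1 that used unstimulated ΔIkE120 rested partly on a single fragment. ΔIkE120 over wt was 0.37 without stimulation and -0.24 with it, and stimulated over unstimulated was 0.89 in wt and 0.28 in ΔIkE120 cells. In unstimulated ΔIkE120, 1 intronic fragment at chr11:11690618-11690838 held 13767 of the 43039 reads (32.0%). That fragment had 2314 reads in DN3 cells, 3128 in ES cells, 828 in unstimulated wt, 459 in stimulated wt and 1 in stimulated ΔIkE120. With this fragment left out of every library, a setting chosen after seeing the data, the unstimulated deletion ratio turned to -0.12, the direction seen with stimulation, and the ΔIkE120 stimulation ratio was 0.84. The unstimulated deletion ratio was 0.24 when the top fragments of both libraries were left out of both, 0.095 with capped counts and 0.030 with covered fragments. The ΔIkE120 stimulation ratio turned to -0.090 with covered fragments. With top fragments left out, the stimulated deletion ratio was -0.23 and the wt stimulation ratio 1.145. The fragment's 36-base left end occurred once at DpnII sites of the genome and its right end 4650 times. The ends follow, each read inwards from its site, with the DpnII site in capitals.
11690618-11690657, plus strand: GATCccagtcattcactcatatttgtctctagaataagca
11690799-11690838, minus strand: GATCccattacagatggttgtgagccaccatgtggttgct

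Over the coding part of Fignl1 alone, 14 fragments, density was 1018 RPM per kb in DN3 cells and 1014 in stimulated wt P5424. The other libraries had 598.6 in ES cells, 530.8 in unstimulated wt, 429.1 in unstimulated ΔIkE120 and 688.7 in stimulated ΔIkE120. Here stimulated exceeded unstimulated in both genotypes, with log2 ratios of 0.93 in wt and 0.68 in ΔIkE120 cells. ΔIkE120 over wt was -0.31 without and -0.56 with stimulation. The first rested on 1 fragment with 4569 of the 8023 reads of unstimulated wt (56.9%): left out of both libraries, a setting chosen after seeing the data, it turned the ratio to 0.64, while the stimulated ratio was -0.57. In the non-coding part the deletion contrast was 0.76 without stimulation and -0.0013 with it. There the fragment with 13767 reads held 45.0% of the unstimulated ΔIkE120 reads, and without it, chosen after seeing the data, the values were 0.034 and 0.044.

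The leading 3 fragments of Fignl1 were ranked by their median over the 6 libraries. The first, at chr11:11702886-11703444, overlapped coding exon and UTR and had 654.3 RPM in DN3 cells, 1028 in ES cells, 2622 and 1440 in unstimulated and stimulated wt P5424, and 624.7 and 1017 in the 2 ΔIkE120 libraries. The next, its neighbour at chr11:11702761-11702889 in coding exon, was the top fragment of the interval in stimulated ΔIkE120 with 2983 reads, and had 1696, 2715, 803, 2715 and 2940 reads in the other libraries in the order given above. The last, at chr11:11687622-11687959 in a non-coding exon, had 902.8 RPM in DN3 cells and 188.0 in ES cells. A further fragment that overlapped exon and UTR, chr11:11705576-11707092, was the top one of DN3 thymocytes with 4644 reads, against 347 in unstimulated wt P5424. Ranks of single fragments therefore differed from library to library, even within 20 kb.

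The start of Fignl1 carried the H3K27ac mark, which is found at active promoters and enhancers, in P5424 cells of both genotypes. In the peak lists, which use GRCm38, 1 peak covered chr11:11808088-11809907 in wt and chr11:11807986-11809751 in ΔIkE120 cells, with fold enrichments of 3.92 and 4.12 and -log10 q of 19.9 and 24.3. By -log10 q these peaks stood at the 94.9th and 96.9th percentile of their lists. RefSeq's promoter window of 300 bases (GRCm38.p6) held 34 CpG dinucleotides, a number reached by 7.73% of 32851 such windows; the median was 7. The 229 bases before the start, chr11:11808984-11809212 on the minus strand, are shown with CpG in capitals because this was the only promoter of the 3 genes under a peak.
Fignl1 promoter: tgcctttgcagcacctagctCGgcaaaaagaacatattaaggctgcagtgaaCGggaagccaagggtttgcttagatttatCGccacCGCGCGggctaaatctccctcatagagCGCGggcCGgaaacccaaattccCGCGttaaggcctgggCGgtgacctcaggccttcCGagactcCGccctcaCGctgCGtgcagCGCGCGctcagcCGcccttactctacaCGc

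In mm9 these bases matched chr11:11708987-11709215, inside the 4C fragment chr11:11707912-11710514. That promoter fragment had 1039 reads in DN3 cells (681.2 RPM), 3121 in ES cells (1008 RPM), 15 in unstimulated wt P5424 (8.61 RPM), 408 in stimulated wt P5424 (267.3 RPM), 353 in unstimulated ΔIkE120 (105.6 RPM) and 962 in stimulated ΔIkE120 (441.6 RPM). It was high in ES cells and DN3 thymocytes and lowest in unstimulated wt P5424, and in each P5424 genotype the stimulated library had more. A window of 5 kb to either side of the start had 817.6 RPM per kb in DN3 cells, 552.0 in ES cells, 841.5 and 674.6 in unstimulated and stimulated wt P5424, and 312.9 and 523.6 in ΔIkE120. Of the 14663 reads of this window in unstimulated wt P5424, 10187 lay on 1 fragment of 74 bp described below, so its place as the highest library there rested on that fragment.

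Between Fignl1 and Ddc, 12 fragments took 0.208% of reads in DN3 cells, 0.338% in ES cells, 0.762% in unstimulated wt P5424, 0.272% in stimulated wt, 0.156% in unstimulated ΔIkE120 and 0.300% in stimulated ΔIkE120. Unstimulated wt P5424 stood apart, and 1 fragment of 74 bp held 10187 of its 13275 reads there (76.7%). That fragment had 0 reads in DN3 cells, 3758 in ES cells, 100 in stimulated wt, 639 in unstimulated ΔIkE120 and 27 in stimulated ΔIkE120. Without it the stretch took 0.208%, 0.217%, 0.177%, 0.266%, 0.137% and 0.298% in the same order, and unstimulated wt P5424 was no longer the highest. ΔIkE120 over wt without stimulation was -2.29 with this fragment and -0.38 without it, and stimulated over unstimulated wt turned from -1.49 to 0.58; leaving it out was chosen after seeing the data. Its neighbour of 115 bp shared a DpnII site with it and was much more even, with 1024, 1658, 1077, 1786, 1187 and 2585 reads. The pair is shown whole on the plus strand with DpnII and Csp6I (GTAC) sites in capitals; the uneven fragment has no Csp6I site.
chr11:11713223-11713337: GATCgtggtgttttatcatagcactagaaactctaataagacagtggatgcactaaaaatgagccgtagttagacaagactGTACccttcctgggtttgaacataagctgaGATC
chr11:11713334-11713407: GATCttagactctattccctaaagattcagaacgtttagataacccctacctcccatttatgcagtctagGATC

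Ddc, at chr11:11714104-11798047 on the minus strand, holds 170 fragments. It took 33176 reads in DN3 cells (2.18%), 107037 in ES cells (3.46%), 54106 in unstimulated wt P5424 (3.11%), 39382 in stimulated wt P5424 (2.58%), 84124 in unstimulated ΔIkE120 (2.52%) and 54075 in stimulated ΔIkE120 (2.48%). ES cells were highest and DN3 thymocytes lowest. The log2 ratio was 0.67 for ES over DN3 (0.65 to 0.69) and 0.51 for unstimulated wt P5424 over DN3 (0.49 to 0.53). Both turned below 0, to -0.83 and -0.28, when covered fragments as a share of all covered fragments within 1 Mb replaced reads. ΔIkE120 over wt was -0.30 without and -0.06 with stimulation, and stimulated over unstimulated was -0.27 in wt and -0.02 in ΔIkE120 cells. With covered fragments, -0.30 turned to 0.048 and -0.27 to 0.017, and with reads within 1 Mb as denominator -0.02 turned to 0.11. The directions of the ratios that turned thus depended on the measure. The value of -0.06 stayed below 0 in 5 of 5 alternatives.

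Contact along Ddc was uneven. In 4 segments of equal length, counted from the bait side, its density in DN3 cells was 332.4, 195.5, 84.1 and 424.5 RPM per kb. In ES cells the segments had 531.6, 343.9, 233.3 and 538.6. Unstimulated wt P5424 had 322.1, 181.7, 243.0 and 733.1, and stimulated wt P5424 530.3, 188.8, 269.1 and 241.4. The ΔIkE120 libraries had 310.7, 183.2, 180.7 and 524.7 without stimulation and 453.3, 168.8, 134.1 and 426.7 with it. In every library but stimulated wt P5424, the segment at the 5′ end of Ddc thus had more contact than both segments inside the gene. In that library the 5′ segment had 0.897 of the density of the one before it, and 1.35 times its density once the top fragment of the latter (2911 reads) was left out, chosen after seeing the data. The exception thus rested on 1 fragment. In the 5′ segment stimulated over unstimulated was -1.60 in wt cells, against -0.30 in ΔIkE120 cells. In the segment nearest the bait the same contrast was 0.72 in wt and 0.54 in ΔIkE120 cells.

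One intronic fragment near the 5′ end, chr11:11781391-11782357, had the highest median of the whole interval. It lay in Ddc and under the antisense non-coding gene 1700042O10Rik (chr11:11768126-11785324, plus strand). Its reads were 3104 in DN3 cells (2035 RPM), 7193 in ES cells (2323 RPM), 1548 in unstimulated wt (888.5 RPM), 1022 in stimulated wt (669.7 RPM), 3202 in unstimulated ΔIkE120 (958.0 RPM) and 2388 in stimulated ΔIkE120 (1096 RPM). ES and DN3 cells were the highest, and the 4 P5424 libraries lay within 669.7 to 1096 RPM. Its ends are printed with DpnII and Csp6I sites in capitals, since this fragment was contacted in all 6 libraries.
11781391-11781430, plus strand: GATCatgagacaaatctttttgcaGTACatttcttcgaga
11782318-11782357, minus strand: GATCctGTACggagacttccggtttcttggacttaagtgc

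The other leading fragments of Ddc lay near its 3′ end. The fragment at chr11:11716757-11718283 had 1450 RPM in DN3 cells, 221.6 in ES cells, 474.7 and 1214 in unstimulated and stimulated wt P5424, and 921.5 and 539.9 in ΔIkE120. A fragment of only 30 bp next to it, chr11:11718280-11718309, had 435.3, 34.9, 843.7, 530.8, 718.0 and 984.7 RPM in the same order, so ES cells were lowest at both. The top fragment of stimulated wt P5424 in the interval, chr11:11774302-11776197, had 2911 reads there but 45 in DN3 cells and 156 in unstimulated wt P5424.

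H3K27ac over Ddc was weaker than at Fignl1 and lay inside the gene. In wt P5424 cells 8 peaks covered 4240 bases of Ddc and the 2.5 kb before its start, and in ΔIkE120 cells 4 peaks covered 2778 bases. The wt list was longer (34553 against 29902 peaks), and of the peaks at or above the median of their list, 3 in wt and 2 in ΔIkE120 cells lay there. The strongest in both lists were chr11:11872540-11873905 in wt and chr11:11872561-11873842 in ΔIkE120 cells, with -log10 q of 10.3 and 9.68. Neither RefSeq promoter window of Ddc lay under a peak; they held 2 and 5 CpG dinucleotides.

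In the stretch between Ddc and Grb10, 87 fragments took 0.606% of reads in DN3 cells, 1.00% in ES cells, 0.598% and 0.622% in unstimulated and stimulated wt P5424, and 0.449% and 0.365% in ΔIkE120 cells. Per kb, contact was close to that of Grb10 in DN3 cells (186.6 against 192.4 RPM) and above it in stimulated wt P5424 (191.6 against 163.6). It was below Grb10 in ES cells (309.4 against 661.3), unstimulated wt P5424 (184.3 against 217.6), unstimulated ΔIkE120 (138.4 against 195.6) and stimulated ΔIkE120 (112.4 against 200.2). ΔIkE120 was below wt in both states, at -0.41 and -0.77, and at -0.18 and -0.71 with the top fragments left out, an alternative chosen after seeing the data. Of the 3 genes and both stretches between them, this one had the lowest share of mappable fragments: 51 of 87 (58.6%) had both ends unique, against 211 of 227 (93.0%) in Grb10, and 16 had no read in any library. The leading fragment, chr11:11807022-11808364, had 312.1 RPM in DN3 cells, 1091 in ES cells, 1775 in unstimulated wt P5424 and 770.1 in unstimulated ΔIkE120, but 19.7 in stimulated wt and 0 in stimulated ΔIkE120. The fragment at chr11:11828522-11829637 went the other way, with 523.5 against 1151 RPM in wt and 36.5 against 555.9 in ΔIkE120 cells, and chr11:11806471-11806515 was even, between 268.1 and 528.8 RPM in all 6 libraries. SCARNA4, a small RNA gene at chr11:11813624-11813750, contained no fragment midpoint.

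Grb10, the farthest gene, had the largest ES over DN3 ratio of the genes. It lies at chr11:11830511-11938686 on the minus strand and holds 227 fragments. It took 221491 reads in ES cells (7.15%, 7.13 to 7.18%) but 31740 in DN3 cells (2.08%). The P5424 libraries had 41009 (2.35%) in unstimulated wt, 27002 (1.77%) in stimulated wt, 70728 (2.12%) in unstimulated ΔIkE120 and 47181 (2.17%) in stimulated ΔIkE120. ES over DN3 was 1.78 on the log2 scale (1.76 to 1.80), a 3.44-fold difference. An excess of ES cells was not particular to Grb10. The same ratio was 1.49 in the mirror of the gene upstream and 3.02 in the next interval downstream, described below. Of the reads of the interval, 54.1% lay in Grb10 in ES cells, against 28.4% in DN3 cells and 24.9% to 32.4% in P5424 cells; the gene makes up 43.1% of the interval's length. The ES over DN3 ratio turned to -0.45 when covered fragments as a share of all covered fragments within 1 Mb replaced reads.

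ES cells touched nearly every fragment of Grb10. Reads fell on 214 of 227 (94.3%) in ES cells, 150 (66.1%) in DN3 cells, 118 (52.0%) and 90 (39.6%) in unstimulated and stimulated wt P5424, and 124 (54.6%) and 142 (62.6%) in ΔIkE120. Of the 150 covered in DN3 cells, 145 were covered in ES cells too (96.7%), which was 67.8% of the ES fragments. Of 224 Grb10 fragments with a read in any library, ES cells had the highest RPM in 117 (52.2%). That share was 46 of 167 in Ddc, 9 of 46 in Fignl1 and 202 of 520 over the interval, and 41.0% over all 3278 fragments with reads within 1 Mb. Over the interval as a whole ES cells were thus the highest library about as often as in the surrounding region, and the genes differed from each other.

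The excess of ES cells grew toward the 5′ end of Grb10. In 4 segments of equal length from the bait side, ES over DN3 was 1.47, 1.55, 1.86 and 2.48. ES density was 590.9, 800.8, 619.4 and 634.3 RPM per kb over these segments, while DN3 density was 212.7, 273.3, 170.1 and 113.4. In the last segment P5424 cells had 66.1 and 47.6 RPM per kb in unstimulated and stimulated wt and 98.8 and 97.9 in ΔIkE120. A window of 5 kb to either side of the start at 11927974, 1 of 3 annotated starts examined, held 25950 reads in ES cells and 409 in DN3 cells, a 31.3-fold difference in share. ES reads lay on 21 of the window's 22 fragments and DN3 reads on 9, with 229 of the DN3 reads on 1 fragment. The P5424 libraries had 525, 879, 3737 and 1566 reads there. At the outermost start, 11938686, density was 474.9 RPM per kb in ES cells, 59.5 in DN3 cells, 49.6 and 7.01 in wt P5424 and 60.2 and 17.5 in ΔIkE120. There stimulated wt had 107 reads on 2 of 23 fragments, and 1 fragment held 64.6% of the unstimulated wt reads. At the innermost start, 11870645, ES over DN3 was only 1.97-fold.

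Deletion and stimulation ratios of Grb10 were smaller than that of ES over DN3. ΔIkE120 over wt was -0.15 without stimulation and 0.29 with it. Stimulated over unstimulated was -0.41 in wt and 0.03 in ΔIkE120 cells. The ΔIkE120 value turned below 0 with capped counts and after quantile normalization (-0.078 for the latter). Segments of the gene did not move together: in wt cells stimulation gave -1.28 in the segment nearest the bait and 0.18 in the next.

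The leading fragments of Grb10 were intronic. The fragment chr11:11902710-11903017 had 1678 RPM in DN3 cells, 1835 in ES cells, 372.5 and 980.9 in unstimulated and stimulated wt P5424, and 205.5 and 168.0 in ΔIkE120. At chr11:11875546-11876202 the values were 213.7, 1415, 468.9, 239.8, 429.9 and 807.5 RPM, with ES cells highest. At chr11:11865302-11865384 they were 32.8, 751.3, 0, 648.0, 242.0 and 1340 RPM, with stimulated ΔIkE120 highest. The top fragment of ES cells in the interval, chr11:11876199-11876720, had 10235 reads (3306 RPM) there, 2305 in DN3 cells (1511 RPM), 384 and 164 in wt P5424, and 0 and 652 in unstimulated and stimulated ΔIkE120. Its ends are given with DpnII and Csp6I sites in capitals.
11876199-11876238, plus strand: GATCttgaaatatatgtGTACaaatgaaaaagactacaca
11876681-11876720, minus strand: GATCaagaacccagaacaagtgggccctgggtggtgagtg

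No H3K27ac peak lay over Grb10 or the 2.5 kb before its start in either P5424 list. Both of its RefSeq promoter windows were free of peaks, although the outer one held 45 CpG dinucleotides, a number reached by 1.93% of windows. Over all windows, 31.4% lay under a wt peak and 31.0% under a ΔIkE120 peak. ES and DN3 cells were not profiled for the mark in these data.

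In the libraries other than ES cells, contact fell off along the interval in steps, shown by tiles of 20 kb counted outward from the viewpoint. ES cells ended the interval at 13274 RPM, close to the 13983 RPM of its first tile. In the tile that opens the interval, from 11683520, DN3 thymocytes had 21338 RPM, ES cells 13983, wt P5424 9929 and 17541, and ΔIkE120 17560 and 16072 without and with stimulation. In the tile over the start of Fignl1 and the 3′ end of Ddc, from 11703520, the values were 13413, 12636, 13048, 16857, 8148 and 11413 in the order DN3, ES, wt, stimulated wt, ΔIkE120 and stimulated ΔIkE120. In the next, from 11723520 and wholly inside Ddc, they were 3812, 8129, 2783, 3232, 3385 and 5446. Every library therefore lost contact at 11723520, by 3.52-fold in DN3 cells, 1.55-fold in ES cells, 4.69-fold and 5.22-fold in unstimulated and stimulated wt P5424, and 2.41-fold in unstimulated ΔIkE120; in stimulated ΔIkE120 it went from 11413 to 5446 RPM. In unstimulated wt P5424 the step was 2.59-fold without the 74 bp fragment that held 10187 reads of the tile before it, and in stimulated wt 4.68-fold without its top fragment there, both chosen after seeing the data. The step at 11723520 was the largest step down within the interval in DN3 cells, ES cells and stimulated wt P5424.

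Beyond that step the profiles parted. ES cells rose from 5782 RPM in the tile from 11803520 to 10483 in the next and peaked at 17558 in the tile from 11863520, inside Grb10, above their level over Fignl1. In DN3 thymocytes the same 3 tiles had 3421, 4679 and 6503 RPM, so the local maximum in Grb10 was present but lay below the level over Fignl1. A local maximum in the tile from 11863520 was also seen in stimulated wt P5424 (6528 RPM), unstimulated ΔIkE120 (6642) and stimulated ΔIkE120 (7874), but not in unstimulated wt P5424 (3138). That library had 8898 RPM in the tile from 11823520 and 5330 in the tile from 11903520.

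At the 5′ end of Grb10 contact was low in the thymocytes and the line. In the tile from 11923520, DN3 thymocytes had 1621 RPM, wt P5424 797.8 and 646.1, and ΔIkE120 1720 and 894.3, while ES cells still had 13274. The largest step down within the interval was at 11923520 in unstimulated wt P5424 (6.68-fold) and stimulated ΔIkE120 (2.66-fold), and at 11903520 in unstimulated ΔIkE120 (2.56-fold). At 11923520 unstimulated ΔIkE120 rose slightly, from 1662 to 1720 RPM. Past the gene, DN3 cells fell 1.84-fold at 11943520 and 5.14-fold at 11963520, and unstimulated ΔIkE120 fell 3.11-fold at 11963520. Not every step was down: stimulated ΔIkE120 rose from 894.3 to 1675 and then 1909.7 RPM over these boundaries, stimulated wt P5424 rose from 281.1 to 712.3 RPM at 11963520, and DN3 cells rose from 171.1 to 584.8 RPM at 11983520. Such steps past the gene rested on few fragments. DN3 reads lay on 10 of 49 fragments from 11943520, 6 of 40 from 11963520 and 4 of 50 from 11983520. Stimulated wt reads lay on 6 and 8 fragments in the tiles before and after 11963520. ES cells had fallen 1.49-fold at 11883520, inside Grb10, and fell again past the gene, to 7558 RPM in the tile from 11943520. In the tile from 11943520 ES reads covered 91.8% of fragments and DN3 reads 20.4%.

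Contact also reached farther in ES cells by the position that held a fixed share of reads. The distance from the viewpoint within which 50% of the interval's reads lay, was 178.2 kb in DN3 cells and 255.0 kb in ES cells. It was 198.4 and 170.7 kb in unstimulated and stimulated wt P5424 and 199.0 and 193.3 kb in ΔIkE120. The position lay in Ddc in the 5 other libraries and in Grb10 in ES cells. Counted by covered fragments, it lay between Ddc and Grb10 in both DN3 cells (217.1 kb) and ES cells (234.1 kb). The 90% distance was 305.1 kb in DN3 cells and 334.7 kb in ES cells, and between 296.2 and 310.8 kb in P5424 cells.

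Past Grb10, the interval of the same length just beyond took 0.558% of DN3 reads and 4.52% of ES reads. P5424 cells had 0.748% and 0.584% in unstimulated and stimulated wt and 1.27% and 1.62% in ΔIkE120. Density in the interval exceeded that beyond it by 13.1-fold in DN3 cells, 2.93-fold in ES cells, 10.5-fold and 12.2-fold in wt P5424, and 5.15-fold and 4.24-fold in ΔIkE120. In unstimulated wt P5424 it was 21.5-fold without the top fragment of the interval beyond, and in the other libraries this setting, chosen after seeing the data, gave 15.9-fold in DN3 cells, 3.02-fold in ES cells, 14.9-fold in stimulated wt and 5.41-fold and 4.58-fold in ΔIkE120. The drop past the interval was thus shallowest in ES cells, and shallower in ΔIkE120 than in wt P5424 in both states.

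Tiles that differed at least 2 fold, on the scale of RPM plus 10, were counted in the interval against all tiles within 1 Mb that held at least 100 reads in the pair. For every pair, these tiles were not matched to the interval for reads. The tile from 12023520, past the interval, had 414 reads on 2 fragments in stimulated wt P5424 and 718 on 9 in stimulated ΔIkE120. The first interval tile had 26770 on 42 and 35011 on 49, and the last 986 on 9 and 1948 on 16. Sparse tiles can pass 2 fold more easily. For ES over DN3, 7 of 13 interval tiles were higher, against 73.5% of 98 tiles within 1 Mb, and 0 of 13 were lower, against 7.14%. All 6 tiles from 11823520 on, which cover Grb10, were among the higher ones, with log2 ratios from 1.16 to 3.03, and the other was the Ddc tile from 11723520. The median log2 ratio was 1.09 in the interval and 2.71 over all tiles, a median in which every tile counts the same however few its reads. By reads, ES cells had no excess over the region at large. All fragments within 1 Mb took 58.7% of reads in ES cells and 62.6% in DN3 cells.

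For unstimulated wt P5424 over DN3, 2 of 13 tiles were higher, against 40.9% of 88, and 3 were lower, against 14.8%. For ΔIkE120 over wt without stimulation, 2 were higher, against 30.5% of 95, and 2 lower, against 21.1%. With stimulation no interval tile passed 2 fold, against 31.2% of 96 tiles higher and 11.5% lower. For stimulated over unstimulated wt cells, 1 tile was higher, against 26.3% of 95, and 3 lower, against 27.4%. In ΔIkE120 cells no interval tile passed 2 fold, against 22.9% of 96 higher and 17.7% lower. At 20 kb, the comparisons other than ES over DN3 with tiles past 2 fold all included the unstimulated wt P5424 library, and those that shared it are not independent. This depended on tile size: with 10 kb, 19.2% of interval tiles passed 2 fold for ΔIkE120 over wt with stimulation, and with 40 kb none did for ΔIkE120 over wt without it.

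Profiles of log2 RPM across the 13 tiles of the interval were compared between libraries. Pearson's r with DN3 thymocytes was 0.94 for stimulated wt P5424, 0.91 for each ΔIkE120 library and 0.68 for unstimulated wt P5424, but 0.24 for ES cells. Unstimulated wt P5424 also had lower values with the other P5424 libraries, at 0.77 with stimulated wt, 0.59 with unstimulated and 0.66 with stimulated ΔIkE120, while those 3 had 0.87 to 0.94 with each other. These are descriptions over neighbouring tiles that share distance from the viewpoint and fragment content. Unstimulated wt P5424 was also the library with the most reads on few fragments: its 10 top fragments held 36.5% of its reads in the interval, against 14.4% in ES cells, 25.9% in DN3 cells and 17.5% to 23.6% in the other P5424 libraries.

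Unique ends went with coverage. The 28 fragments without a read had both ends unique in 7 cases, and the 130 with reads in all 6 libraries in 121 (93.1%). A Csp6I site, which allows the second cut, was present in 281 of the 548 (51.3%), in 82 of the 130 with reads in all 6 libraries (63.1%) and in 19 of the 28 without reads (67.9%), so presence of a site did not separate these groups. Fragments with a site had a mean of 182.9 RPM in DN3 cells and 351.7 in ES cells, and those without one 81.5 and 125.6. The latter were still covered in 70.4% and 86.1% of cases. Of 45 fragments shorter than 36 bp, 28 had reads in DN3 cells and 34 in ES cells. Fragments between genes were covered less often than those in introns or exons, at 65.6%, 73.5% and 76.6% in DN3 cells and 74.0%, 90.2% and 93.6% in ES cells. Of these 96 fragments between genes, 85 lay between Ddc and Grb10, where 51 of 87 fragments had both ends unique. Those 51 were covered in 78.4% of cases in DN3 cells and 86.3% in ES cells.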

How the data were processed

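The authors aligned 4C reads (Bowtie 1.0.0 is named in the submitters' processing notes) and deposited raw read counts per DpnII fragment of chromosome 11, by midpoint. The labels give GRCm38 for all files, but all 295446 deposited 4C positions equalled midpoints of DpnII fragments of mm9 (tolerance 0 bp), so mm9 and GENCODE M1 were used for them. For H3K27ac, the authors deposited MACS2 2.1.1 peak lists on GRCm38, whose columns hold fold enrichment, -log10 p, -log10 q and an integer score; Bowtie2 2.3.4.3 and deepTools 3.2.1 are also named. No position was converted between builds; RefSeq genes and promoters of GRCm38.p6 served the peaks.

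Here, 2 fragments beside the viewpoint that were not listed in every library were left out. Shares used reads more than 15 kb from the viewpoint. A fragment end was unique if its 36 bases occurred once among DpnII ends of mm9. Named fragments were the 3 with the highest median RPM in each gene and stretch between genes and the top fragment of each library. Intervals of log2 ratios used the normal approximation to the counts. Tile counts were checked on simulated data. The members and lists were chosen with earlier results of these data known. The running mean and quantile normalization that the authors plotted were not used, except for quantile normalization as an alternative. Python 3.11.15, numpy 2.4.6, pandas 2.3.3 and scipy 1.17.1 were used.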

Additional observations from a re-analysis of the deposited data

Results flagged for a closer look

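Several log2 ratios had opposite directions in the 2 states or genotypes, each outside its counting error; the differences between them were not tested, since each condition had 1 library. Stimulated over unstimulated gave -0.14 in wt and 0.076 in ΔIkE120 cells over the whole interval. The wt value turned to 0.10 with reads within 1 Mb as denominator, where ΔIkE120 had 0.21, and the ΔIkE120 value turned to -0.0026 with covered fragments. At Fignl1, ΔIkE120 over wt gave 0.37 without and -0.24 with stimulation, but the first turned to -0.12 without the single fragment with the most reads in unstimulated ΔIkE120, a setting chosen after seeing the data. In the stretch between Fignl1 and Ddc, ΔIkE120 over wt gave -2.29 without and 0.14 with stimulation, and stimulated over unstimulated gave -1.49 in wt and 0.94 in ΔIkE120 cells. Without the 74 bp fragment that dominated unstimulated wt there, also chosen after seeing the data, -2.29 became -0.38 and -1.49 turned to 0.58, the same direction as in ΔIkE120 cells. In the stretch between Ddc and Grb10, stimulated over unstimulated gave 0.056 in wt and -0.30 in ΔIkE120 cells. A single fragment, chr11:11807022-11808364, held 29.7% of the unstimulated wt reads there and 17.1% of the unstimulated ΔIkE120 reads. It had 30 reads in stimulated wt and 0 in stimulated ΔIkE120, and thus lowered both ratios. In ΔIkE120 cells it held 2574 of the 15021 reads of the stretch without stimulation and 0 of 7947 with it. The value of -0.30 thus rested at least partly on this fragment, and neither ratio is given here without it. At Grb10, ΔIkE120 over wt gave -0.15 without and 0.29 with stimulation, and stimulated over unstimulated gave -0.41 in wt and 0.034 in ΔIkE120 cells. The last value turned to -0.0069 with capped counts and -0.078 after quantile normalization.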

How the results depend on the processing

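No paired analysis was run, and each condition had 1 library. For the whole interval, the log2 ratio of ES over DN3 was 0.95 with reads within 1 Mb as denominator, 0.71 with capped counts, 1.04 after quantile normalization, 0.90 without the top fragment of each library, and turned to -0.69 with covered fragments. Unstimulated wt P5424 over DN3 was 0.12 with the 1 Mb denominator, 0.058 capped, 0.041 without top fragments, and turned to -0.36 with covered fragments. ΔIkE120 over wt without stimulation was -0.33 with the 1 Mb denominator, -0.25 capped, -0.024 with covered fragments and -0.24 without top fragments. With stimulation it was -0.22 with the 1 Mb denominator, -0.0049 with covered fragments, and turned to 0.00091 without top fragments. Stimulated over unstimulated wt turned to 0.10 with the 1 Mb denominator, and was -0.021 with covered fragments, -0.20 after quantile normalization and -0.067 without top fragments. In ΔIkE120 cells it was 0.21 with the 1 Mb denominator, 0.011 after quantile normalization, 0.16 without top fragments, and turned to -0.0026 with covered fragments. By gene, covered fragments turned ES over DN3 to -0.83 in Ddc and -0.45 in Grb10, unstimulated wt P5424 over DN3 to -0.28 in Ddc and -0.39 in Grb10, and in Ddc ΔIkE120 over wt without stimulation to 0.048 and stimulated over unstimulated wt to 0.017. Stimulated over unstimulated ΔIkE120 turned to -0.090 in Fignl1 with covered fragments, to 0.11 (1 Mb denominator) and 0.013 (without top fragments) in Ddc, and to -0.0069 (capped) and -0.078 (quantile) in Grb10. Between Fignl1 and Ddc, leaving out top fragments, chosen after seeing the data, turned ES over DN3 to -0.27 and stimulated over unstimulated wt to 0.36. Also chosen after seeing the data, leaving out only the top fragment of unstimulated wt there turned unstimulated wt P5424 over DN3 to -0.23 and stimulated over unstimulated wt to 0.58, and leaving out only the top fragment of unstimulated ΔIkE120 turned ΔIkE120 over wt without stimulation to -0.12 in Fignl1; without the top fragment of unstimulated wt that ratio turned to 0.64 in the coding part. Without the top fragment of Ddc segment 3, segment 4 over segment 3 turned to 1.35 in stimulated wt. Counted by covered fragments, the 50% distance was 217.1 kb in DN3 thymocytes, 234.1 kb in ES cells and 201.4 kb in stimulated wt P5424. Tiles of 10 kb put 19.2% of interval tiles past 2 fold for ΔIkE120 over wt with stimulation and 7.69% for stimulation in ΔIkE120 cells, both 0 with 20 kb; tiles of 40 kb put 0% past 2 fold for unstimulated wt P5424 over DN3 (38.5% with 20 kb) and for ΔIkE120 over wt without stimulation (30.8%).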

Other observations

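Fragments too short for a 36-base read still had reads: of 45 fragments under 36 bp, 19 were covered in unstimulated wt P5424, 18 in stimulated wt P5424, 21 in unstimulated ΔIkE120 and 20 in stimulated ΔIkE120.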
